A study of Mus musculus with 6 samples.

Results

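Zinc finger protein genes were followed in mouse melanocytes in which Dicer, the enzyme that cuts microRNA precursors into mature microRNAs, was targeted for 24 hours. The genes were those of the array whose annotation gives a single symbol made of Zfp, Zbtb, Zkscan or Zscan and a number. They came to 57 genes, of 7486 genes with a probe set of their own among 16383 probe sets. By symbol, 41 were Zfp, 13 Zbtb, 2 Zscan and 1 Zkscan genes, and 1 of them, Zfp133-ps, is named as a pseudogene. By RefSeq's list of genes, 7 lay on chromosome 1, 23 on chromosome 2, 7 on chromosome 3 and 20 on chromosome 4. Zinc finger genes of other chromosomes were not analysed here. Throughout, all probe sets means the 16383 above, which need not be the whole array. A listed gene counts as measured only with a probe set of its own among them.

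The cells were Melan-a, an immortal line of pigmented melanocytes from a female C57BL/6 mouse, a single line kept in serum with the phorbol ester TPA. One group received an siRNA against Dicer (siDicer) and the other a control siRNA (siScr), each at 50 pmol per well, and RNA was taken 24 hours later. There were 3 arrays a group, and replicates 1, 2 and 3 came from passages 47, 54 and 56 in both, so that each siDicer array had an siScr array of the same passage. All siRNA differences given below are siDicer minus siScr in log2 units, fitted with limma with the replicate number as a block. Dicer1 was not analysed here, so the groups rest on the labels.

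Zinc finger proteins of these families hold repeated fingers in which a zinc ion is gripped by cysteines and histidines, and most bind DNA. Many Zfp, Zkscan and Zscan genes encode proteins with a KRAB or SCAN domain. The KRAB domain recruits Trim28 and the histone methyltransferase Setdb1 and is best known for silencing transposable elements. Zbtb proteins carry a BTB domain at their start, through which they pair and bind corepressors of the histone deacetylase class. KRAB zinc finger genes multiplied by tandem duplication and often sit in runs of near copies.

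Promoters are shown first for 1 run of neighbouring zinc finger genes on chromosome 2, picked after values were seen. Whether its genes encode KRAB proteins was not checked. Its 4 members, Zfp120, Zfp937, Zfp442 and Zfp345, had positive differences and have upstream sequence in common. None of the 4 passed the test given below. The confidence intervals of Zfp937 (-0.03 to 0.28) and Zfp442 (-0.06 to 0.23) took in both signs. A link between the common sequence and the differences was not tested. The windows are RefSeq's, on build GRCm38.p6, from 250 bases before to 50 bases after the annotated start, written 5′ to 3′ on the gene's strand. Zfp120 lies on the minus strand at chr2:150136629-150136928, Zfp937 on the plus strand at chr2:150217849-150218148, Zfp442 on the minus strand at chr2:150451452-150451751 and Zfp345 on the minus strand at chr2:150485014-150485313. Capitals mark the longest stretch that all 4 hold, which is 14 bases and contains the letters CCAAT.
Zfp120: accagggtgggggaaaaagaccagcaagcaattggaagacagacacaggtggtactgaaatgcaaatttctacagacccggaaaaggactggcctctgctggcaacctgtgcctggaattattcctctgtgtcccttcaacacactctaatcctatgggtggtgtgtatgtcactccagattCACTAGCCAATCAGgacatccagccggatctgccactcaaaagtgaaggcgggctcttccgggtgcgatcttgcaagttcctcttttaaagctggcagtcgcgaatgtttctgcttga
Zfp937: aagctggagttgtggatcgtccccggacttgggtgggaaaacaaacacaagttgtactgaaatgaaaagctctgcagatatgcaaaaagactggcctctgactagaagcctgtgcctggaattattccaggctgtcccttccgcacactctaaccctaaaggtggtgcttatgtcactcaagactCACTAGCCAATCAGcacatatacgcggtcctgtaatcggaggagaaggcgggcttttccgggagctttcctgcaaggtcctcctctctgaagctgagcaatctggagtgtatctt
Zfp442: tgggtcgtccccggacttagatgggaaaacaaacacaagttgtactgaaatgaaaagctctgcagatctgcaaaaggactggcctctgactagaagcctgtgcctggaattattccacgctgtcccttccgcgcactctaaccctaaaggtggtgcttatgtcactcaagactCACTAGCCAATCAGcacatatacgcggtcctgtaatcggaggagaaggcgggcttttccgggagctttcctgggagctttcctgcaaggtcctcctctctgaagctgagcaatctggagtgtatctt
Zfp345: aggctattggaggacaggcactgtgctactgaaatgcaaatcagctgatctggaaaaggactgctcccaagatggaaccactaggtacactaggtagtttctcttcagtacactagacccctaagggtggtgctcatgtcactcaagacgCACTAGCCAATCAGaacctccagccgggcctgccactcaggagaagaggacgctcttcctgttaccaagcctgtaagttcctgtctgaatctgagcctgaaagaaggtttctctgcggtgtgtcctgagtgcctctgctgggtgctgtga

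The stretch began at base 183 of the window in Zfp120, 186 in Zfp937, 174 in Zfp442 and 151 in Zfp345. It was found in 13 of 27025 RefSeq mouse promoters of the same length (0.0481%, either strand). Of the 8 measured coding genes inside the run, 7 had a promoter entry, and all 7 held it. The 4 members hold it by how it was chosen, and the others were the gene models Gm14139, Gm14124 and Gm10130. The other 6 promoters with it were those of Zfp935, Zfp938, the gene models Gm5141 and 4930469K13Rik, and Cers6 and Pcdh19. These last, Cers6 and Pcdh19, are not zinc finger genes. Zfp442 and Zfp937 had the closest windows, with 112 unbroken bases in common, against 14 to 20 in the other pairs. A match is a description of letters, not a binding site.

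MicroRNAs are shown because Dicer makes them and because 2 members are background cases of microRNA targets. In human cells miR-27a is reported to act on the transcript of ZBTB10 and miR-34a on that of ZNF281, the counterparts of Zbtb10 and Zfp281. Capitals mark the seed, bases 2 to 8, and the sequences are RefSeq's.
mmu-miR-27a-3p: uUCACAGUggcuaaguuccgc
mmu-miR-27b-3p: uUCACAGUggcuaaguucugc
mmu-miR-34a-5p: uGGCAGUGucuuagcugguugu

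The miR-27 pair has the seed UCACAGU in common, and that of miR-34a is GGCAGUG. The probe set of the Mir34a gene read 3.19, 3.07 and 3.14 on the siDicer arrays and 3.17, 3.07 and 3.12 on the siScr arrays, below the background gauge described next. The Mir27a and Mir27b genes had no probe set of their own. Zbtb10 and Zfp281 were lower in siDicer in each pair, with differences of -0.23 and -0.16, and neither passed the test given below. Mature microRNAs and target sites in the members were not analysed here, so a link of these differences to microRNAs was not tested.

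Most members gave signal above a gauge of background in these melanocytes. As a gauge of background, 407 probe sets of olfactory and vomeronasal receptor genes had a 95th percentile of 4.14 log2 units, and 53 of 57 members had a mean above it. The 4 below were Zfp385b at 4.02, Zfp831 at 3.67, Zfp352 at 3.34 and Zfp804a, a gene linked to psychosis, at 3.08. The median member signal was 6.67, against 4.62 over all probe sets and 5.78 over the 9732 probe sets above the gauge. The 8 members of highest signal were Zfp106, Zfp362, Zbtb41, Zfp931, Zfp691, Zfp704, Zfp334 and Zfp292, from 8.29 down to 7.53. A signal also depends on its probes, so these values do not rank the transcripts by amount. Zfp683 (Hobit), known from resident lymphocytes, and Zbtb46, known from dendritic cells, were also above the gauge. So were the keratinocyte markers Flg at 6.81 and Lor at 5.54, while Ivl at 3.86 was below. A signal above the gauge thus does not show by itself that a gene is expressed.

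**Figure D1:**
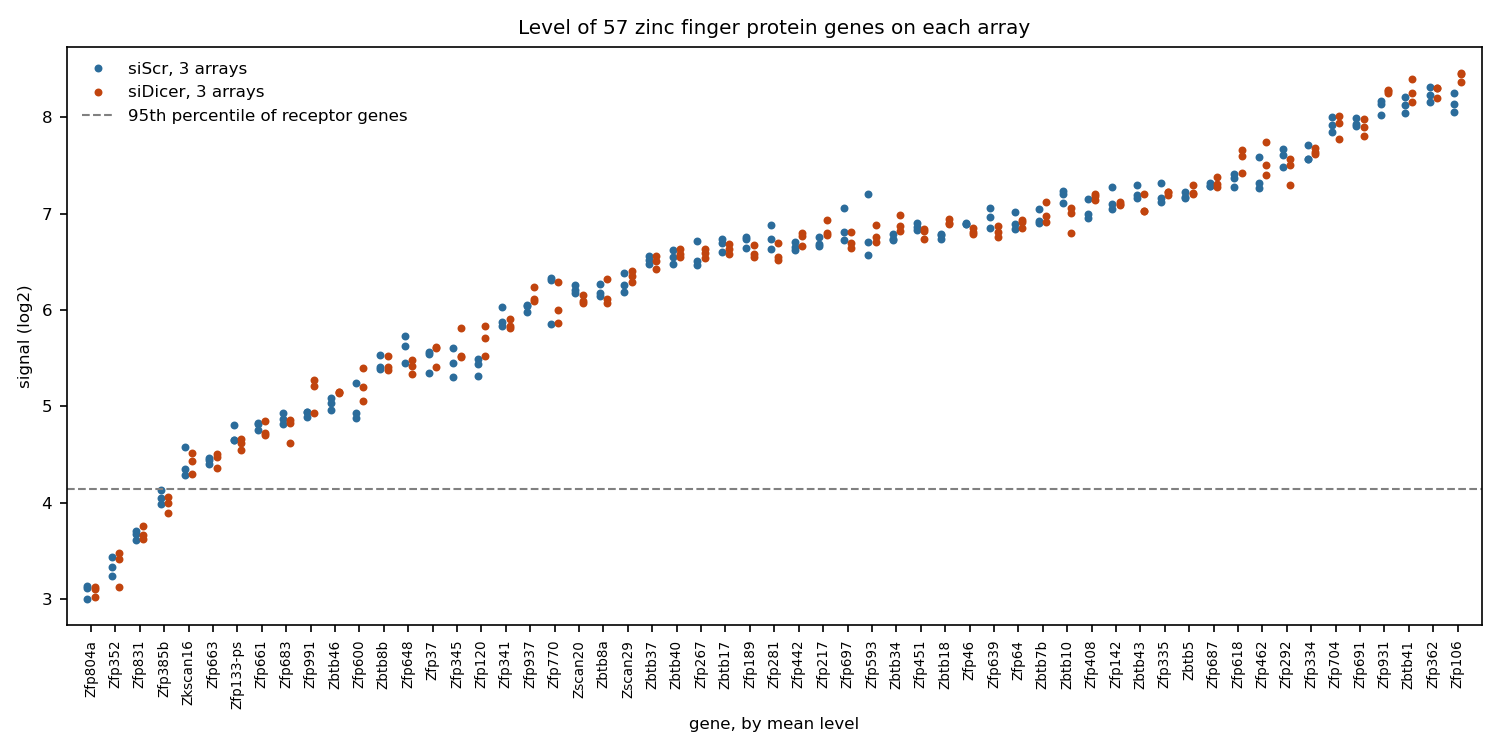
Log2 signal of each of the 57 zinc finger protein genes on each of the 6 arrays, with genes along the x axis in order of mean signal. Points are single arrays, blue for siScr and red for siDicer, and the dashed line is the 95th percentile of the receptor genes at 4.14. In 53 genes the mean lies above the line, and in most genes the points of both groups overlap.

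No member passed the test of siDicer against siScr at an adjusted p under 0.05 (limma, Benjamini-Hochberg over all 16383 probe sets), with the replicate block or without it. Over all probe sets the block gave 163 calls (0.995%) and the fit without it 35 (0.214%); among probe sets above the gauge the block's share was 1.64%. The lowest adjusted p of a member was 0.103 with the block and 0.241 without. At an unadjusted p under 0.05, 11 members were higher and 4 lower with the block, where 8.82% of all probe sets were higher and 6.85% lower. Of the 9732 probe sets above the gauge, which hold all 15 of these members, 21% had such a p in either direction, 1264 higher and 783 lower. Without the block 7 members had one, beside 10.2% of all probe sets. Leaving out a pair of arrays gave 9, 5 and 7 such members without replicates 1, 2 and 3.

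The differences were small, and the intervals bound them. They ran from -0.23 to 0.27 with a median of 0.01, against -0.01 over all probe sets, and 30 members were above 0 and 27 below. The median size was 0.08, against 0.07 over all probe sets. The 95% interval of each of the 57 members lay within a 1.5-fold difference in either direction, as it did for 16131 of all 16383 probe sets. The lowest bound of any member was -0.39 and the highest 0.42. Differences over 1.5-fold were thus outside every member's interval at 24 hours, while the smaller ones measured did not pass the test.

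In all 3 passage pairs 18 members were higher in siDicer, where 17.9% of all probe sets were, and 13 were lower, where 22.6% were. The siDicer and siScr arrays did not overlap at all for 12 members, against 15.9% of all probe sets. Of the 12, 9 were higher in siDicer, where 1241 of all 16383 probe sets were higher without overlap. All 12 were above the gauge. There 1839 of 9732 probe sets did not overlap, 1010 of them higher. The medians over members were 0.03, -0.03 and 0.03 in the pairs at passages 47, 54 and 56.

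**Figure D2:**
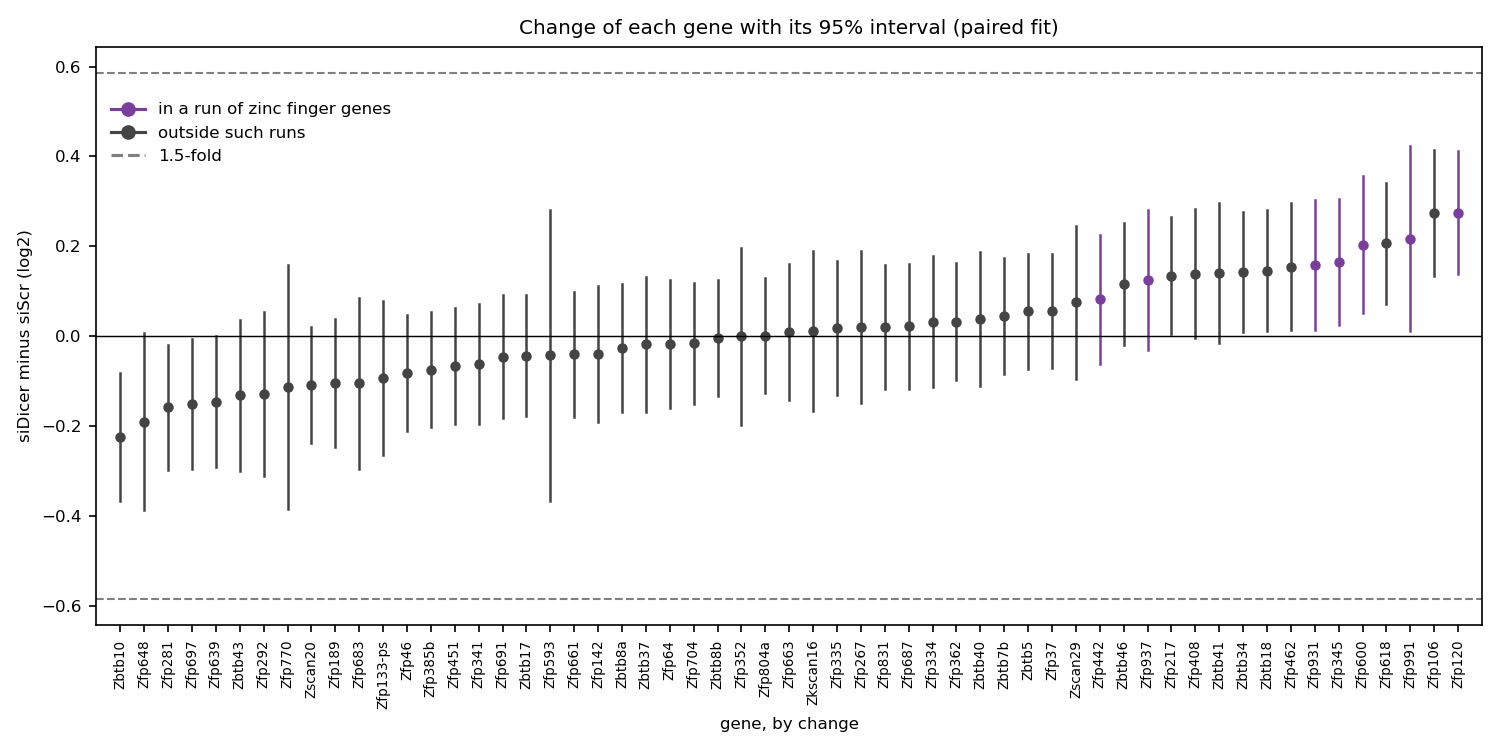
Difference of each of the 57 genes, siDicer minus siScr in log2 units, from the fit with the replicate block, with genes along the x axis in order of that difference. Bars are 95% intervals, dashed lines mark a 1.5-fold difference, and purple marks the 7 genes in runs of zinc finger genes. All 57 intervals lie inside the dashed lines, and all 7 purple points lie above 0.

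The lowest p belonged to Zfp120, a zinc finger gene of the chromosome 2 run. Its signal was 5.53, 5.83 and 5.71 on the siDicer arrays of replicates 1, 2 and 3, and 5.31, 5.49 and 5.44 on the siScr arrays. Every siDicer array was above every siScr array. The difference was 0.27 ± 0.06 (SE), or 1.21-fold, with a limma adjusted p of 0.103.

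Zfp106, an RNA-binding protein needed for the upkeep of motor neurons and muscle, was the member of highest signal. It read 8.37, 8.45 and 8.46 in siDicer and 8.06, 8.26 and 8.14 in siScr. The groups did not overlap, and the siDicer arrays lay close together. Its difference was 0.27 ± 0.06, or 1.21-fold (limma adjusted p = 0.107). When only the 7530 probe sets of a single symbol were fitted and tested, the same differences had limma adjusted p-values of 0.0356 for Zfp120 and 0.0396 for Zfp106.

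Among the proteins that act with chromatin, Zfp618, a partner of the methylation reader Uhrf2, read 7.60, 7.42 and 7.66 in siDicer and 7.37, 7.28 and 7.41 in siScr. Its groups did not overlap, though the lowest siDicer array was only just above the highest siScr array. The difference was 0.21 ± 0.06 (limma adjusted p = 0.172). Zfp217, which acts with histone demethylase complexes and is amplified in breast cancer, read 6.78, 6.80 and 6.93 in siDicer and 6.67, 6.69 and 6.76 in siScr. All siDicer arrays were again above all siScr arrays, by a difference of 0.13 ± 0.05 (limma adjusted p = 0.306). Zfp462, a chromatin protein of pluripotent cells, read 7.40, 7.74 and 7.50 in siDicer and 7.32, 7.59 and 7.27 in siScr. Here the groups overlapped, since replicate 2 was high in both, while each pair had the siDicer array on top.

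Zfp281, a factor of pluripotency and of the epithelial to mesenchymal transition, lay the other way. It read 6.52, 6.69 and 6.55 in siDicer and 6.74, 6.88 and 6.63 in siScr, so that the groups overlapped but every pair had the lower value in siDicer. The difference was -0.16 ± 0.06 (limma adjusted p = 0.268). Zfp292, first described as an activator of the growth hormone gene, had a difference of -0.13, with 2 pairs lower and 1 higher; it ran from -0.04 without replicate 1 to -0.20 without replicate 3. Zfp335, a subunit of a histone methyltransferase complex, was at 0.02, Zfp687, a partner of the reader Zmynd8, at 0.02, Zfp64, a regulator of the Mll gene, at -0.02, and Zfp451, a SUMO ligase, at -0.07. Zfp593, a ribosome assembly factor, had the largest SD of any member in siScr, 0.33, because 1 array read 7.20 where the other two read 6.57 and 6.71. Over the 11 measured of 16 listed regulators with a described function, 0 passed the test and the median was 0.02. At an unadjusted p under 0.05, 4 were higher and 1 lower, where 8.82% of all probe sets were higher and 6.85% lower. All 11 were above the gauge, where 1264 of 9732 probe sets were higher and 783 lower.

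The Zbtb genes as a group had 0 of 13 calls and a median of 0.04. At an unadjusted p under 0.05, 2 were higher and 1 lower, where 8.82% of all probe sets were higher and 6.85% lower. All 13 were above the gauge, where 1264 of 9732 probe sets were higher and 783 lower. Zbtb10, a repressor of Sp transcription factor genes, had the most negative difference of all members. Its signal was 6.80, 7.06 and 7.01 in siDicer and 7.11, 7.20 and 7.23 in siScr. No siDicer array reached the lowest siScr array, and replicate 1 had the widest gap. The difference was -0.23 ± 0.06, which is 1.17-fold lower, with a limma adjusted p of 0.162.

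Zbtb18, a repressor needed for cortical neurons and for muscle differentiation, read 6.89, 6.90 and 6.94 in siDicer and 6.79, 6.78 and 6.73 in siScr. Its SD was 0.03 in each group, the groups did not overlap, and the difference was 0.15 ± 0.06 (limma adjusted p = 0.287). Zbtb34 read 6.99, 6.82 and 6.88 in siDicer against 6.79, 6.73 and 6.74 in siScr, also without overlap. Zbtb46, a dendritic cell factor, read 5.15, 5.15 and 5.14 against 4.96, 5.08 and 5.04. Those groups lay apart as well, with a difference of 0.12 (limma adjusted p = 0.381).

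The other Zbtb genes lay on either side of 0. Zbtb17 (Miz1), the partner of Myc in repression, was at -0.04, and Zbtb7b (ThPOK), the fate factor of helper T cells, was at 0.04. Zbtb41 was at 0.14 and Zbtb43 at -0.13, and their groups overlapped. Zbtb43 ran from -0.06 without replicate 2 to -0.20 without replicate 1. Zbtb8b had 2 probe sets, of which the brighter gave -0.00 and the dimmer -0.05. The 12 measured genes of a list of 15 BTB repressors ran from -0.23 to 0.15, with a median of 0.02 and 0 calls.

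**Figure D3:**
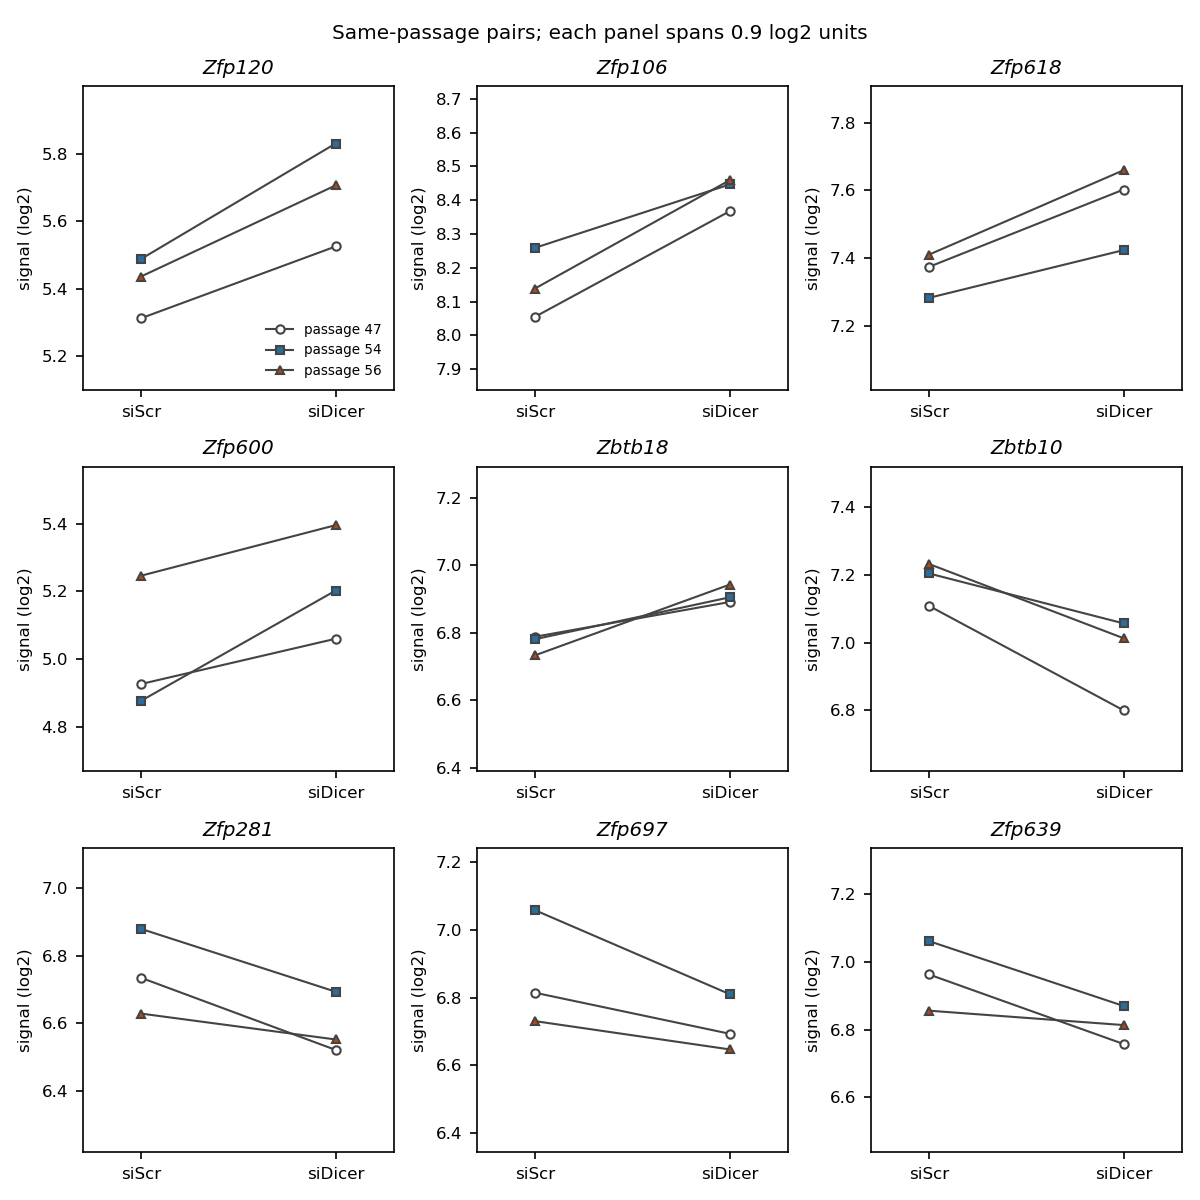
Log2 signal of 9 members in siScr (left of each panel) and siDicer (right), with a line joining the arrays of the same passage, 47, 54 or 56. Every panel spans 0.9 log2 units, so slopes compare across panels. Lines slope up in all 3 pairs for Zfp120, Zfp106, Zfp618, Zfp600 and Zbtb18, and down in all 3 for Zbtb10, Zfp281, Zfp697 and Zfp639, while no gene passed the test.

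The remaining members with a negative difference and an unadjusted p under 0.05 were Zfp697 and Zfp639. Zfp697 read 6.69, 6.81 and 6.65 in siDicer and 6.81, 7.06 and 6.73 in siScr. Replicate 2 was the highest array of each group, and the groups overlapped. Zfp639 read 6.76, 6.87 and 6.81 against 6.96, 7.06 and 6.86, with overlap of a single siDicer array. Zscan20 read 6.15, 6.10 and 6.07 in siDicer and 6.26, 6.18 and 6.21 in siScr, and Zfp46 read 6.85, 6.81 and 6.79 against 6.90, 6.91 and 6.90. Neither of these groups overlapped, with differences of -0.11 and -0.08 (limma adjusted p = 0.384 and 0.501). Zfp648 at -0.19 and Zfp189 at -0.11 were lower in each pair, with overlap. Zfp648 was at -0.09 without replicate 1, and Zfp189 at -0.06 without replicate 2. Zscan29 was at 0.08, and from 0.03 without replicate 1 to 0.16 without replicate 2, and the only Zkscan gene, Zkscan16, at 0.01.

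By chromosome, 16 of 23 members on chromosome 2 were above 0, with 6 higher and 0 lower at an unadjusted p under 0.05. On chromosome 3 it was 3 of 7, with 0 higher and 3 lower, among them Zbtb10, Zfp697 and Zfp639. Chromosome 4 had 9 of 20 above 0, with 4 higher and 0 lower, and chromosome 1 had 2 of 7, with 1 higher and 1 lower. Over all probe sets 7270 of 16383 were above 0, with 8.82% higher and 6.85% lower at that p. The chromosome 2 count includes the 4 members of the Zfp120 run. Of the members higher at that p, Zfp120, Zfp345 and Zfp931 on chromosome 2 lay in runs of zinc finger genes. So did Zfp600 and Zfp991 on chromosome 4.

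The members in runs of neighbouring zinc finger genes all had positive differences. A run was taken as at least 4 coding genes matching the symbol rule with at most 5 other coding genes between neighbours; these limits were chosen after values were seen, and the runs get no test. There were 3 runs: 1 on chromosome 2 with 4 genes, all of them members; 1 on chromosome 2 with 9 genes, of which Zfp931 was a member; and 1 on chromosome 4 with 16 genes, of which Zfp600 and Zfp991 were members. All 7 members in runs were above 0, with a median of 0.16, a range from 0.08 to 0.27, and 5 of 7 higher at an unadjusted p under 0.05. Over all probe sets 7270 of 16383 were above 0 and 8.82% were higher at that p. All 7 were above the gauge, where 4637 of 9732 probe sets were above 0 and 1264 were higher at that p. Of the 50 members outside, 23 were above 0 and the median was -0.01. The 7 were also all above 0 under the other normalizations and with each pair of arrays left out, with medians from 0.14 to 0.21. Leaving out a pair could not have turned any of them. In 6 of the 7 all 3 pairs were higher in siDicer, and the pairs of Zfp991 differed by -0.01, 0.27 and 0.39. None passed the test.

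In the run of Zfp120, Zfp937 read 6.09, 6.23 and 6.12 in siDicer and 6.04, 5.98 and 6.05 in siScr, and its groups did not overlap. Zfp442 read 6.67, 6.80 and 6.76 against 6.66, 6.62 and 6.70, with a gap of 0.01 in the first pair and an overlap of the groups. Zfp345 read 5.53, 5.81 and 5.51 against 5.45, 5.61 and 5.30. Each pair of Zfp345 had the siDicer array on top, but passages differed by more than the siRNA groups did. The differences were 0.13 for Zfp937, 0.08 for Zfp442 and 0.16 for Zfp345 (limma adjusted p = 0.404, 0.544 and 0.254).

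In the other runs, Zfp931 read 8.25, 8.29 and 8.28 in siDicer and 8.14, 8.03 and 8.18 in siScr, with no overlap and a difference of 0.16 (limma adjusted p = 0.284). Zfp600 read 5.06, 5.20 and 5.40 against 4.93, 4.88 and 5.25, higher in each pair but with groups that overlapped. Zfp991 read 4.93, 5.21 and 5.27 against 4.94, 4.94 and 4.88. It was level in the first pair and higher in the other two, with a difference of 0.22 (limma adjusted p = 0.297) that was 0.33 without replicate 1 and 0.13 without replicate 3.

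Neighbouring genes were read in the same way. With symbols brought up to date, 10 measured genes inside the runs matched the symbol rule, and 10 of 10 were above 0 with a median of 0.17; Zfp971 was at 0.26, Zfp980 at 0.18 and Zfp972 at 0.11. The other measured coding genes inside the runs have symbols that do not match the rule, and are mostly gene models such as Gm14305, Gm14322, Gm14325 and Gm14295. These were above 0 in 11 of 11, with a median of 0.15 and a range from 0.08 to 0.22. Whether they encode zinc finger proteins was not checked, so they are no contrast to zinc finger genes. The 19 measured coding genes beside the runs, up to 5 on each side, had a median of 0.00 and ran from -0.10 to 0.32, with 11 above 0. They included Apmap at 0.32, Cst3, the cystatin C gene, at 0.20 and Fv1, a restriction factor against retroviruses, at 0.20. A probe set annotated with Zfp967, Zfp966 and Zfp971 together, and so not a member, read 9.31, 9.43 and 9.41 in siDicer and 9.06, 9.10 and 9.13 in siScr, a difference of 0.29 with no overlap (limma adjusted p = 0.0822). No rows with identical values were among these genes, but near copies can share probe signal, and its part in the common direction was not tested.

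**Figure D4:**
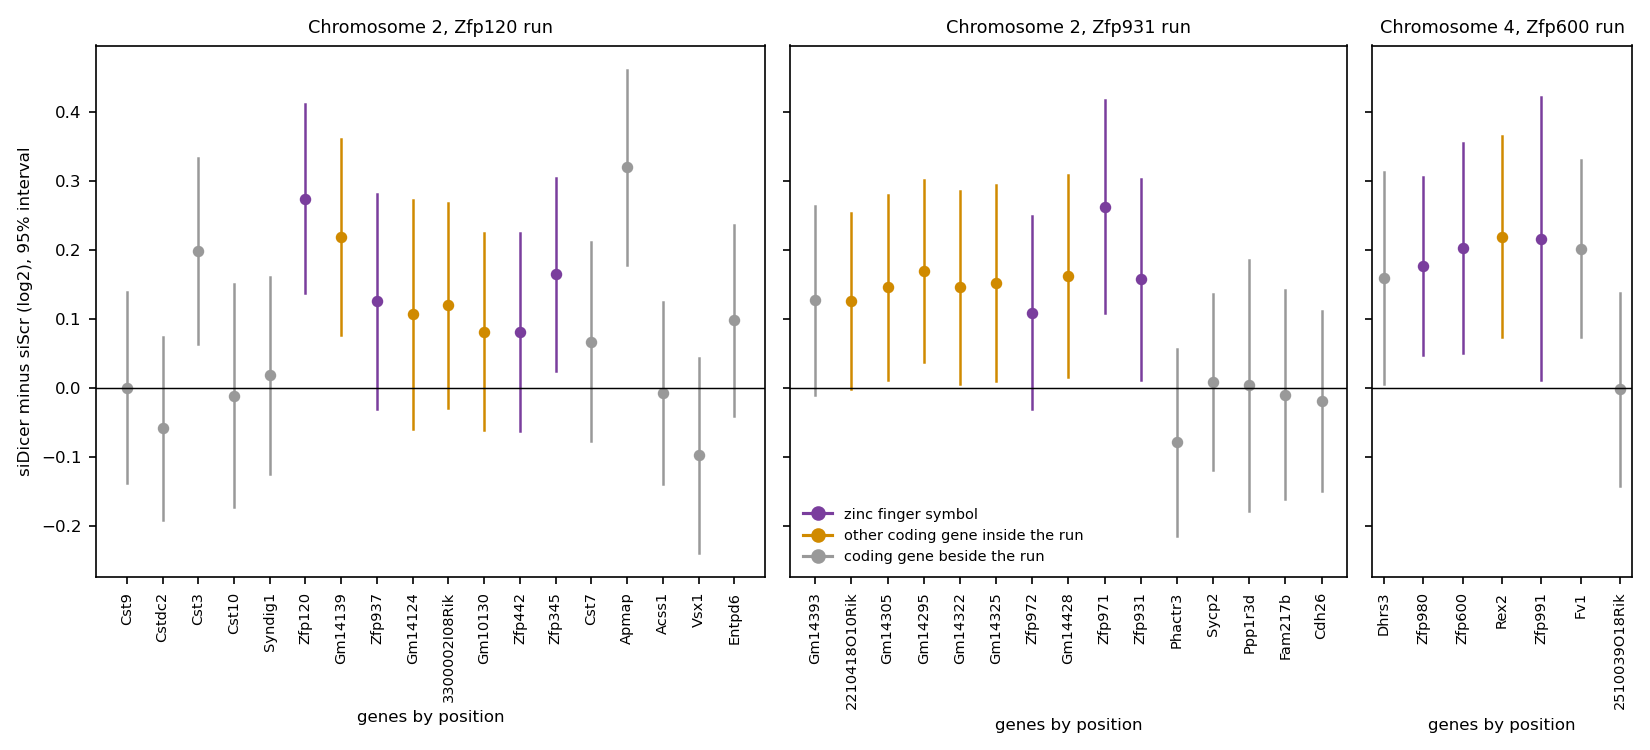
Difference of measured coding genes in and beside the 3 runs, siDicer minus siScr in log2 units, with genes along the x axis by position and bars for 95% intervals. Purple marks symbols that match the rule, orange coding genes inside a run whose symbols do not, and grey the coding genes beside it. Purple and orange points are all above 0, 10 of 10 and 11 of 11, and 11 of the 19 grey points are.

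Promoter windows were matched by symbol for 46 of the 57 members. The others were Zkscan16, Zfp133-ps, Zfp462, Zbtb10, Zfp991, Zfp704, Zfp683, Zfp831, Zbtb40, Zfp362 and Zfp593. Of the 46, 23 (50%) held CCAAT on either strand. It was in 37.9% of all 27025 promoters and in 37% of the 4353 promoters of measured genes of a single symbol. All 6 of the members in runs with an entry held it, against 17 of the 40 outside (42.5%). Among the 6 are the members of the Zfp120 run, which all hold CCAAT in the stretch they share. They are thus not separate cases. The octamer ATGCAAAT was found in 2 members, Zfp120 and Zfp345 (4.35%), both shown above, in 1.75% of all promoters and in 2.02% of those of measured genes. The GC box GGGCGG was in 50% of members, 44.5% of measured genes and 35.9% of all. The ETS letters CCGGAAG were in 23.9%, 10.9% and 9.12% in that order, and the TATA letters TATAAA in 6.52%, 13.2% and 14.2%. Members in runs had few CpG, with a median of 6 in 300 bases and a range from 3 to 10, while those outside had a median of 18; the median was 12 over measured genes and 7 over all promoters. Zfp618, with 59, and Zbtb18, with 51, were among the members richest in CpG. These counts say only which letters the windows hold.

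Differences between passages were set beside those between siRNA groups. The median range over passages 47, 54 and 56, averaged over both siRNA groups, was 0.12 in members and 0.13 over all probe sets. It exceeded the size of the siRNA difference in 35 of 57 members. Zfp770 had the widest range, 0.38, and read 6.29, 5.86 and 6.00 in siDicer and 6.33, 6.31 and 5.85 in siScr. Its second pair differed by -0.45, the widest gap of any member in any pair, and the other pairs differed by -0.04 and 0.15. Zfp600 had a passage range of 0.33, Zfp462 of 0.31 and Zfp345 of 0.30. Each passage had 1 array per group, so these ranges have no replicate of their own.

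Partners of the members were read from a list of 52 corepressor and heterochromatin genes, of which 14 were measured. None passed the test. At an unadjusted p under 0.05, 5 were higher and 1 lower, where 8.82% of all probe sets were higher and 6.85% lower. All 14 were above the gauge, where 1264 of 9732 probe sets were higher and 783 lower. The median was -0.01. Gatad2b, a subunit of the NuRD deacetylase complex, read 9.42, 9.46 and 9.51 in siDicer and 9.20, 9.26 and 9.19 in siScr, without overlap, a difference of 0.24 (limma adjusted p = 0.129). Zmynd8, a reader of acetylated histones, was at 0.20 (limma adjusted p = 0.170), the deacetylase Hdac4 at 0.18 and the demethylase Kdm1a at -0.15. Setdb1, the methyltransferase that KRAB proteins recruit, was at 0.00 and Hdac1 at -0.01, and Cul3, the ubiquitin ligase subunit bound by many BTB proteins, was at -0.15.

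Other zinc finger factors, of the Klf, Sp, Gata, Gli, Ikaros and related families, were measured for 20 of 57 listed genes. None passed the test, and 2 were higher at an unadjusted p under 0.05, Mecom at 0.18 and Ikzf2 at 0.18, beside 8.82% of all probe sets. The median was -0.04 with 14 below 0, where 9113 of all 16383 probe sets were below 0. Snai1, a repressor of epithelial genes, was at -0.14, Sp3 at -0.11 and Klf4 at -0.01.

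Of 12 markers of melanocytes, the labelled cell type, 5 were measured, all above the gauge: Tyrp1, an enzyme of melanin synthesis, at 12.8, Slc24a5 at 10.7, Pax3 at 10.6, Mlph at 10.3 and Mreg at 6.69. Of these only Mreg passed the test, with a difference of 0.62 (limma adjusted p = 0.0435). None of the 5 fibroblast, 3 keratinocyte and 6 immune markers measured did. At an unadjusted p under 0.05, 3 of 5 fibroblast markers were higher, each in all 3 pairs, with Fn1 at 0.26, Postn at 0.25 and Col5a1 at 0.19. The groups overlapped in all 3, and the other fibroblast markers, Col3a1 and Col5a2, were at -0.001 and -0.06. The same threshold left 3 of 6 immune markers lower, with no overlap of the groups, C1qa at -0.29, Fcer1g at -0.25 and C1qb at -0.20. Over all probe sets 8.82% were higher and 6.85% lower at that p. The marker differences past it are of the size of the largest among the members. The mean signal of the fibroblast list ran from 6.84 to 7.07 over the siDicer arrays and from 6.68 to 6.96 over the siScr arrays, and that of the immune list from 4.45 to 4.60 and from 4.67 to 4.69. Of the immune markers 5 of 6 were above the gauge, and Ptprc, found on all leukocytes, was below it at 2.84. Their part in the member differences was not tested. Arrays correlated with each other with r from 0.994 to 0.997 over all probe sets, and RNA integrity numbers ran from 9.7 to 10.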

How the data were processed

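Total RNA of 6 cultures was hybridised to mouse Clariom D arrays with the WT PLUS chemistry, per the labels' protocols. Each probe set has a deposited log2 signal per array. The submitters' processing notes name Affymetrix Expression Console; for its version, background correction, normalization and probe build the sources used here give nothing. Scaling between arrays would hide a shift common to all genes.

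Symbols came from the platform annotation, and 455 of 16383 probe sets had several and 8398 none. For a gene with several probe sets that of highest mean was used. Limma 3.58.1 in R 4.3.3 (lmFit, eBayes) was run on all 16383 probe sets without a filter on signal. It used Benjamini-Hochberg adjustment and a threshold of 0.05, and was tested on simulated data. Replicate number was a block because the labels give the same passages and deviations of same-numbered arrays correlated with r of 0.44, 0.41 and 0.24, against -0.34 to -0.04 for others. Deviations were taken from each group's own mean, so positive values for matched arrays force negative ones among the others. The number of arrays limits the precision.

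Named genes were the 10 of lowest p in each direction above the gauge, the 8 of highest signal and 3 per subgroup; others were named after their values were seen. The members and lists were chosen with earlier results of these data known. Grouping by protein domain was not done here.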

Additional observations from a re-analysis of the deposited data

How the results depend on the processing

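No member passed the threshold under any alternative run except 1. That run used only probe sets with a single symbol and gave 2 members past it, Zfp120 and Zfp106. The differences were the same, but the limma fit was redone on fewer probe sets, so p-values before adjustment moved as well. Members at an unadjusted p under 0.05 went from 15 to 20. Over all probe sets, 163 calls became 35 with no replicate block, that is with the pairing ignored, 84 after quantile normalization, 93 after cyclic loess, 290 above the receptor gauge, 281 with a single symbol and 302 with an intensity trend. Leaving out 1 replicate pair gave 0 to 157 calls, with 157 without replicate 1 and 0 without replicate 2 or replicate 3. The member median ran from -0.0061 to 0.020 over the alternatives and took either sign. Of 286 alternative values of 22 named differences, 283 kept direction and side of the threshold, and 2 were those of Zfp120 and Zfp106. The other 1 turned: Zkscan16 ran from -0.068 without replicate 3 to 0.090 without replicate 1, and the cause was not tested. Many of the 286 could not turn. The named differences stay the same without the block, on fewer probe sets or with an intensity trend. They also do with probe sets averaged per gene or symbols brought up to date. The 95% intervals of members reached a median of 0.14 log2 units to either side, which limits what could be called.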
